A study of Homo sapiens with 16 samples.

Results

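IFI6, IFI27, IFI27L2, IFI35, IFI44 and IFI44L are 6 human genes named for their induction by interferon, and they were followed here through RNA sequencing of HMC3 cells with and without an intact METTL3 gene. They were taken by symbol, 6 of 60669 genes, and each symbol was found once in both deposited tables. The family was chosen by name, but selected on measured values of these libraries: the log2 fold changes in poly(A) RNA, where IFI27 and IFI44 stand near the top, and the TPM of IFI6, which moves the other way. Their changes are therefore given as a description, and the calls of a table-wide test are quoted for each gene without being read as support.

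HMC3 is an immortalized human cell line sold as microglial. METTL3 is the catalytic subunit of the enzyme that writes N6-methyladenosine on RNA. The groups were wild-type (WT) HMC3 and HMC3 of genotype METTL3 KO, with no treatment, interferon included, named for either, and whether the knockout was 1 clone or several is not given in the sources used here. Smart-seq2 libraries of poly(A) RNA, 5 per genotype, were used through the authors' deposited table of 1 comparison, and libraries made after ribosomal RNA depletion, 3 per genotype, through TPM, a relative abundance that divides the reads of a gene by its length and scales the total of each library to the same sum. KO below always means libraries labelled KO.

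Interferons bind cell surface receptors whose kinases activate transcription factors, which enter the nucleus and bind the interferon-stimulated response element of target promoters. The 6 genes are such targets or their relatives. IFI6, IFI27 and IFI27L2 encode small hydrophobic proteins of the ISG12 family that sit in membranes, mitochondrial ones among them, and IFI6 and IFI27 have been linked to both antiviral defence and the control of cell death. IFI35 encodes a leucine zipper protein that pairs with NMI, and IFI44 and IFI44L are neighbouring paralogues with cytoplasmic products known chiefly as markers of an interferon response.

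The promoters of 4 of the 6 genes held a match to the response element, and the stretches around these matches are printed here. They come from the RefSeq table of promoters (GRCh38.p14), which covers 250 bases before to 50 bases after a start site. That table held all 6 genes. The search used the core of the interferon-stimulated response element, which is GAAA, any 2 bases and GAAA, on both strands, and capitals mark the matches. IFI6 lies on the minus strand and the other genes shown on the plus strand. The first is chr1:27672266-27672358, the next chr14:94110618-94110660, then chr1:78649761-78649788, and the last pair chr1:78620274-78620303 and chr1:78620365-78620394.
IFI6: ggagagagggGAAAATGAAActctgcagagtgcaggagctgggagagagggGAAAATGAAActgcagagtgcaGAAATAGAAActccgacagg
IFI27: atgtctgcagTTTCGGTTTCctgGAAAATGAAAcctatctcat
IFI44: gcacactgagTTTCAGTTTCctttctct
IFI44L distal: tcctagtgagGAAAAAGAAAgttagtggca
IFI44L proximal: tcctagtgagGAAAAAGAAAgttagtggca

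IFI6 held 3 matches, at -156, -115 and -93 bases from its start. IFI27 held 2, on opposite strands, at -108 and -95. IFI44 held 1, on the opposite strand at -18, and IFI44L held 2, at -164 and -73, within 30-base stretches that were identical letter for letter and began 91 bases apart, the proximal one where GENCODE 29 places an IFI44L exon. Thus 4 of the 6 genes had a match, against 4.38% of the 27305 genes with a window in the table (3.57% of 35116 windows) and 35 of 57 other interferon-stimulated genes that had a window (61.4%). IFI27 and IFI44 have a further window each with the same matches, and positions are from the first. With the longer core that goes on with CT, and so contains the shorter one, 3 of the 6 kept a match (IFI6, IFI27 and IFI44), against 0.322% of all genes.

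IFI27L2 had no match to the core in its window, nor did its relative IFI27L1. IFI35 had none either, but held the same repeat with a spacer of 1 base, GAAANGAAA, a motif added after its window had been read. That repeat occurred in 3.87% of all genes with a window, and is shown in capitals at chr17:43006758-43006783, where GENCODE 29 places an IFI35 exon.
IFI35: ggatttcacgGAAATGAAAgtggaag
The core of the GAS element, TTCNNNGAA, which reads the same on both strands, was found in IFI27, where it overlapped both response elements, and in IFI35, where it overlapped the repeat. It was present in 9.38% of all genes with a window. These matches describe letters only, and binding was not measured.

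**Figure D1:**
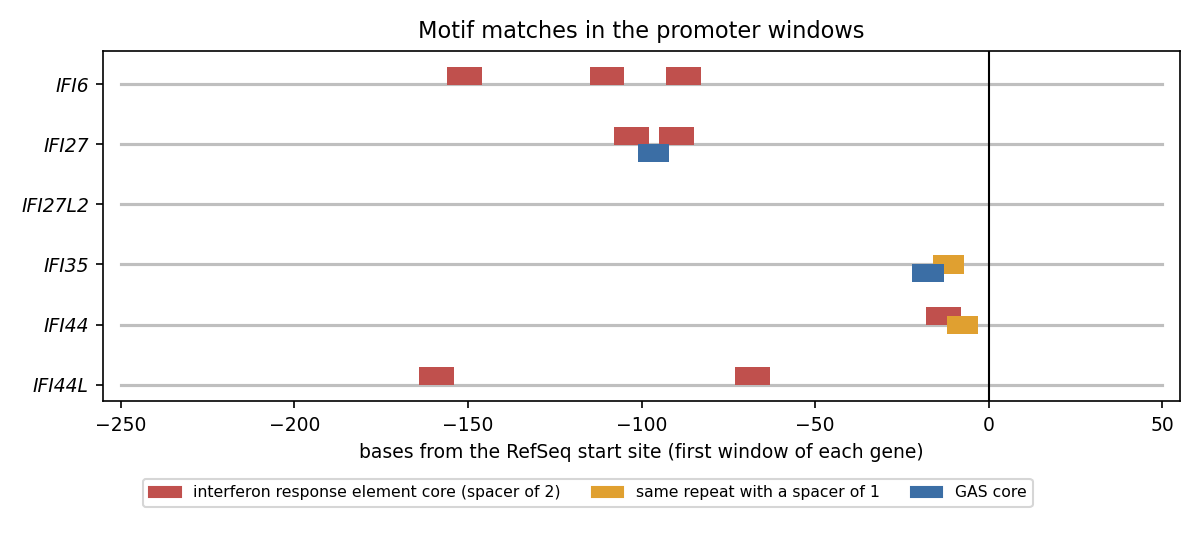
Positions of motif matches in the first RefSeq window of each gene, in bases from the start site; bars are matches, coloured by motif. IFI6 has 3 response element cores, IFI27 and IFI44L have 2, IFI44 has 1 and IFI27L2 and IFI35 have none.

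The 6 genes lie at 4 places in the genome (GRCh38, GENCODE 29). IFI44L (chromosome 1, 78619922 to 78646145) and IFI44 (78649796 to 78664078) follow each other on the plus strand with 3650 bases between them. IFI27 (chromosome 14, 94104836 to 94116698, plus strand) and IFI27L2 (94127779 to 94130253, minus strand) face each other across 11080 bases, and IFI27L1 ends 989 bases before IFI27. IFI6 (chromosome 1, 27666061 to 27672218, minus strand) and IFI35 (chromosome 17, 43006725 to 43014456, plus strand) stand alone. An antisense gene, AL445490.1, overlaps the IFI6 locus but shares 0 exonic bases with it and was listed at 0 TPM in all 6 libraries.

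TPM does not carry depth, but with GENCODE 29 exon lengths 90.9% of the values above 0 in the rRNA-depleted libraries were whole multiples of 1 read, to within 0.02 reads, and all values of the 6 genes were. The recovered depth was 266157 to 487272 reads in the WT libraries and 512627 to 1267171 in the KO libraries. KO libraries 1 and 2 did not differ beyond sampling noise (chi-square 1.02 per degree of freedom over 10120 genes, p = 0.065), while every other pair within a genotype did (1.16 to 1.54), so these 2 were averaged and counted as 1 sample, leaving 3 WT and 2 KO samples. The labels do not say that libraries came from separate cultures, so p-values measure the spread between libraries, which may be technical. METTL3 mRNA was not lower under the KO label, at 25.4 to 31.6 TPM in WT and 39.2 to 42.7 TPM in KO libraries, a log2 difference of 0.48 (limma adjusted p 0.106) that was -0.37 (limma adjusted p 0.271) with the GC trend described below removed. The authors' deposited table gave METTL3 a log2 fold change of 0.09 (SE 0.11), so its mRNA does not bear out the label. An mRNA level alone does not speak against the label either, and every direction here is one between labels. Of 14 microglial and macrophage markers, 10 were listed at 0 in all 6 libraries, among them AIF1, CX3CR1, P2RY12, TMEM119, ITGAM, PTPRC and SPI1, and 2 reached 5 TPM in any library. Of 10 fibroblast and pericyte markers, summing to 11200 to 13600 TPM in WT and 3350 to 3480 in KO libraries, most of the WT sum was the collagen gene COL1A1 (9610 to 12000 TPM in WT and 749 to 865 in KO). FN1 (803 to 871 and 2170 to 2240 TPM) and THY1 (121 to 131 and 248 to 270 TPM) were higher in KO, so the list did not move as one, DCN and LUM were at or near 0, and the part of these differences in the results below was not tested.

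In poly(A) RNA, 5 of the 6 genes were higher in the KO libraries and IFI27L2 was not. The authors' deposited table called IFI6, IFI27, IFI35, IFI44 and IFI44L at an adjusted p under 0.05, all higher, where the same rule called 9.55% of 14009 genes higher and 10.3% lower (19.9% in either direction). The table does not name its numerator. A positive value is read as higher in KO because, among 147 genes outside the lists used here that were called in each library type with a change of 1 log2 unit or more, 90.5% went the same way in each on that reading.

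Among the ISG12 family, IFI27 had the largest fold change of the 6. The authors' deposited table gave it a mean normalized count of 60.9 over the 10 libraries and a log2 fold change of 3.99 (SE 0.28; adjusted p 4.01e-42), the 13th highest of the 14009 genes. With 5 libraries a genotype, the authors' deposited table thus implies a mean of about 7.19 in WT and 115 in KO, so IFI27 went from near absence to a moderate level. IFI6 was the most abundant of the 6 in the authors' deposited table, at 396 normalized counts per kilobase of exon against 64.5 for IFI35, the next. Its mean normalized count of 342 and log2 fold change of 2.18 (SE 0.10; adjusted p 1.09e-93) in the authors' deposited table imply about 123 in WT and 561 in KO, so the rise was from a level already well detected. For IFI27L2 the authors' deposited table gave 36.0 counts and a log2 fold change of 0.05 (SE 0.25; adjusted p 0.917), with a 95% interval of -0.43 to 0.54. That interval lies below the intervals of IFI6 (1.98 to 2.39) and IFI27 (3.44 to 4.55) in the authors' deposited table. IFI27L1, the relative on the far side of IFI27, had -0.33 (SE 0.28; adjusted p 0.469) in the authors' deposited table. On chromosome 14 the gene in the middle of the 3 was thus the one called in poly(A) RNA, although the difference between the 3 was not tested.

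IFI44 and IFI44L, the paralogues on chromosome 1, were both higher. The authors' deposited table gave IFI44 a log2 fold change of 3.03 (SE 0.22; adjusted p 3.62e-42) at a mean of 87.2 normalized counts, which implies about 19.1 in WT and 155 in KO. IFI44L in the authors' deposited table had 2.21 (SE 0.52; adjusted p 0.000296) at a mean of only 8.14 counts, and per kilobase of exon it was the lowest of the 6, at 0.795 against 42.8 for IFI44. IFI35 had the smallest called change, with a log2 fold change of 0.91 (SE 0.14; adjusted p 2.35e-09) at 127 counts in the authors' deposited table. NMI, its binding partner, changed by a like amount in the authors' deposited table, 0.86 (SE 0.24; adjusted p 0.00319).

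**Figure D2:**
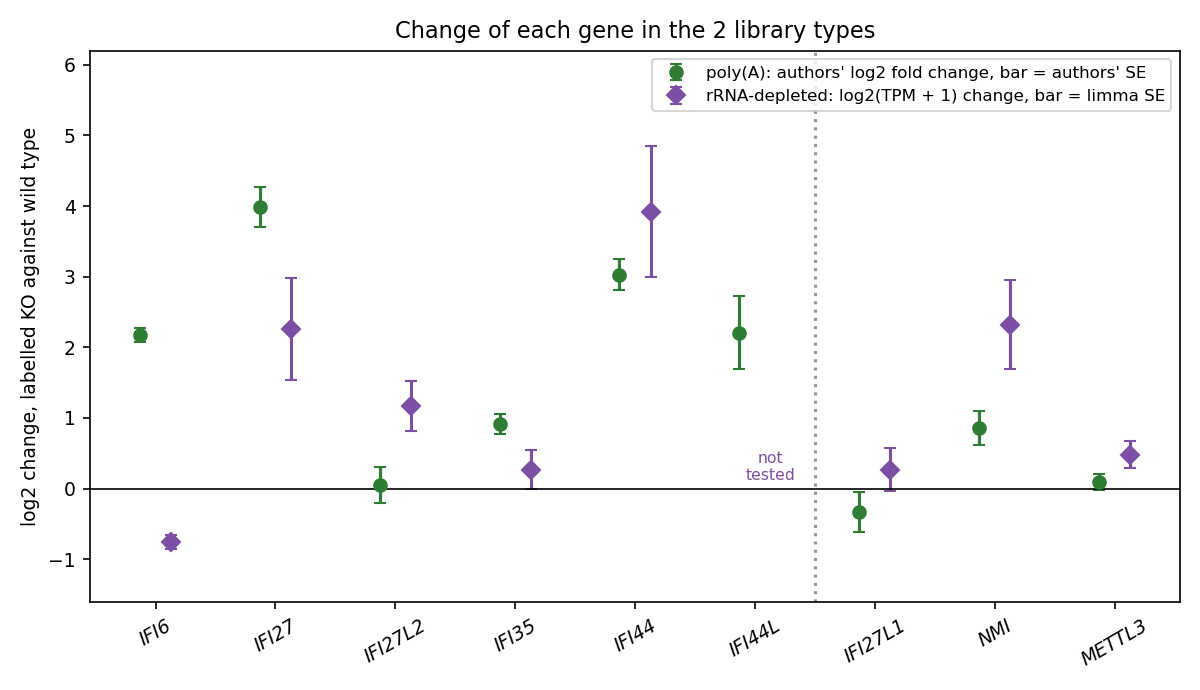
Log2 change of each gene, KO label against wild type, in poly(A) RNA (circles, authors' values and SE) and in rRNA-depleted RNA (diamonds, log2(TPM + 1) scale, limma SE); 3 further genes stand right of the dotted line. IFI6 is above 0 in poly(A) RNA (2.18) and below 0 in rRNA-depleted RNA (-0.76); IFI44 is above 0 in both.

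In rRNA-depleted RNA, which also holds transcripts without a poly(A) tail, the 6 genes did not move together. IFI44 was higher in KO, IFI6 was lower, and IFI27, IFI27L2 and IFI35 did not pass the threshold. The threshold was an adjusted p under 0.05 in limma, fitted on log2(TPM + 1) over the 14789 genes that reached 1 TPM in 3 or more libraries. IFI44L did not reach that filter, so 5 of the 6 were tested, 1 was called higher and 1 lower, where the same rule called 22.9% of all genes higher and 12.4% lower (35.3% in either direction). Higher calls were thus 64.8% of all calls, but 42.9% to 52.5% under median ratio scaling, quantile normalization, voom or removal of the GC trend. The median of all genes was 0.41 on the log2 scale and between 0.03 and 0.11 under those 4, so values relative to the median are given as well. In bulk RNA, fewer cells expressing a gene and less RNA per cell cannot be told apart.

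IFI6 stood at 1752, 1807 and 1966 TPM in the 3 WT libraries and at 1104, 1118 and 1068 TPM in the 3 KO libraries. All KO libraries were below all WT libraries, with 143 to 353 reads behind each value, so counting error was small for this gene. WT averaged 1841 ± 111 TPM (SD, n = 3) and KO 1089 ± 30.7 TPM (SD, n = 2). IFI6 thereby changed by -0.76 on the log2 scale (SE 0.10; limma adjusted p 0.0058), or -1.17 relative to the median of all genes. IFI6 ranked 20 of 19686 protein-coding genes by mean TPM in WT and 68 in KO. Over 17 alternative settings its log2 change ran from -1.11 to -0.71 and its limma adjusted p from 3.87e-10 to 0.082, the last without KO library 3. The 2 library types thus gave IFI6 opposite signs, 2.18 and -0.76. That difference was not tested, because the authors' deposited table holds no single library and its scale is another.

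The GC content of the longest IFI6 transcript was 56.1%, in the 8th of 10 bins from the lowest, where the median log2 change of all genes was -0.02. Changes in rRNA-depleted RNA fell from a median of 1.24 in the lowest GC bin to -0.41 in the highest. With that trend removed from each library, a setting chosen after the data were seen, IFI6 had -0.74 (SE 0.12; limma adjusted p 0.00912).

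IFI27 was listed at 1.71, 0 and 0 TPM in WT and at 6.47, 13.2 and 3.11 TPM in KO libraries. These values came from 1, 0 and 0 reads against 8, 20 and 2 reads, so every KO library was above every WT library, though KO library 3 held fewer than the 3 reads that a count of 0 allows, which equal 4.33 to 7.49 TPM in WT. The log2 change was 2.26 (SE 0.72; limma adjusted p 0.0615), or 1.85 relative to the median of all genes. It passed under 4 of 16 alternatives, with limma adjusted p-values from 0.00232 to 0.281. Its size depended on the pseudocount, from 0.99 with 5 TPM to 4.43 with 0.1 TPM. Reads pooled within each genotype gave 0.596 and 8.84 TPM, a ratio of 14.8 with an exact 95% interval of 2.47 to 606 that covers counting error only. The exons of all annotated IFI27 transcripts together span 4147 bases, more than IFI6 (865) or IFI44 (2038), and TPM was divided by that length.

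IFI27L2 had 21.3, 12.5 and 10.8 TPM in WT and 32.3, 24.7 and 38.9 TPM in KO libraries, from 2 to 5 and 10 to 16 reads. The groups did not overlap, although KO library 2 and WT library 1 lay close together. The log2 change was 1.17 (SE 0.36; limma adjusted p 0.0586), or 0.76 relative to the median of all genes, and it passed under 4 of 17 alternatives, with log2 changes from 0.63 under voom to 1.44 and limma adjusted p-values from 0.0274 to 0.393. Pooled reads gave a ratio of 2.03 with an exact 95% interval of 0.999 to 4.54 for counting error alone, which includes 1. IFI27L1 had 13.0 to 20.1 TPM in WT and 15.5 to 21.7 TPM in KO libraries, which overlap. Its log2 change was 0.27 (SE 0.30; limma adjusted p 0.525).

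IFI44 was listed at 0, 5.08 and 5.88 TPM in WT and stood at 55.9, 48.4 and 50.7 TPM in KO libraries. The WT values rest on 0, 1 and 2 reads and the KO values on 34, 36 and 16, and the groups were far apart. The log2 change was 3.92 (SE 0.93; limma adjusted p 0.0269), or 3.51 relative to the median of all genes. Pooled reads gave 3.64 and 51.6 TPM, a ratio of 14.2 with an exact 95% interval of 4.69 to 70.1 for counting error alone. The call was lost under 4 of 17 alternatives, with limma adjusted p-values from 6.09e-06 to 0.2, the highest without KO library 3, and the log2 change stayed between 2.79 and 5.14. IFI44 lies in the 2nd lowest GC bin, whose genes had a median log2 change of 1.06, and with the GC trend removed its log2 change was 2.88 (SE 0.94; limma adjusted p 0.0753).

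IFI44L was listed at 0 TPM in all 3 WT libraries and at 1.64, 0.267 and 0.631 TPM in KO libraries, from 5, 1 and 1 reads. A count of 0 allows 3 reads, which for this gene equal 2.08, 3.03 and 1.75 TPM in WT libraries 1 to 3, so a difference was not detectable at this depth and no fold is given.

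IFI35 had 79.0, 73.4 and 60.7 TPM in WT and 68.0, 59.7 and 115 TPM in KO libraries. Libraries 1 and 2 of the KO label lay within or just under the WT range, while KO library 3 was above it, with 35 reads. WT averaged 71.0 ± 9.38 TPM (SD, n = 3) and KO 89.2 ± 35.9 TPM (SD, n = 2). For IFI35 the log2 change was 0.27 (SE 0.28; limma adjusted p 0.485), with a 95% interval of -0.44 to 0.98, and its sign turned with median ratio scaling (-0.08), under voom (-0.23) and without KO library 3 (-0.14). Relative to the median of all genes it was -0.14. No direction is given for IFI35 in this library type. A difference from the 0.91 of the poly(A) table was not tested, because the scale of that table is another. NMI was listed at 2.04, 0 and 1.72 TPM in WT and 7.71, 10.2 and 9.28 TPM in KO libraries. Its log2 change was 2.32 (SE 0.63; limma adjusted p 0.04). These NMI values came from 1, 0 and 1 reads against 8, 13 and 5 reads. The 3 reads that a count of 0 allows equal 5.16 to 8.92 TPM in WT, which reaches above KO library 1. NMI lies in GC bin 3 from the lowest, whose genes had a median log2 change of 0.91.

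**Figure D3:**
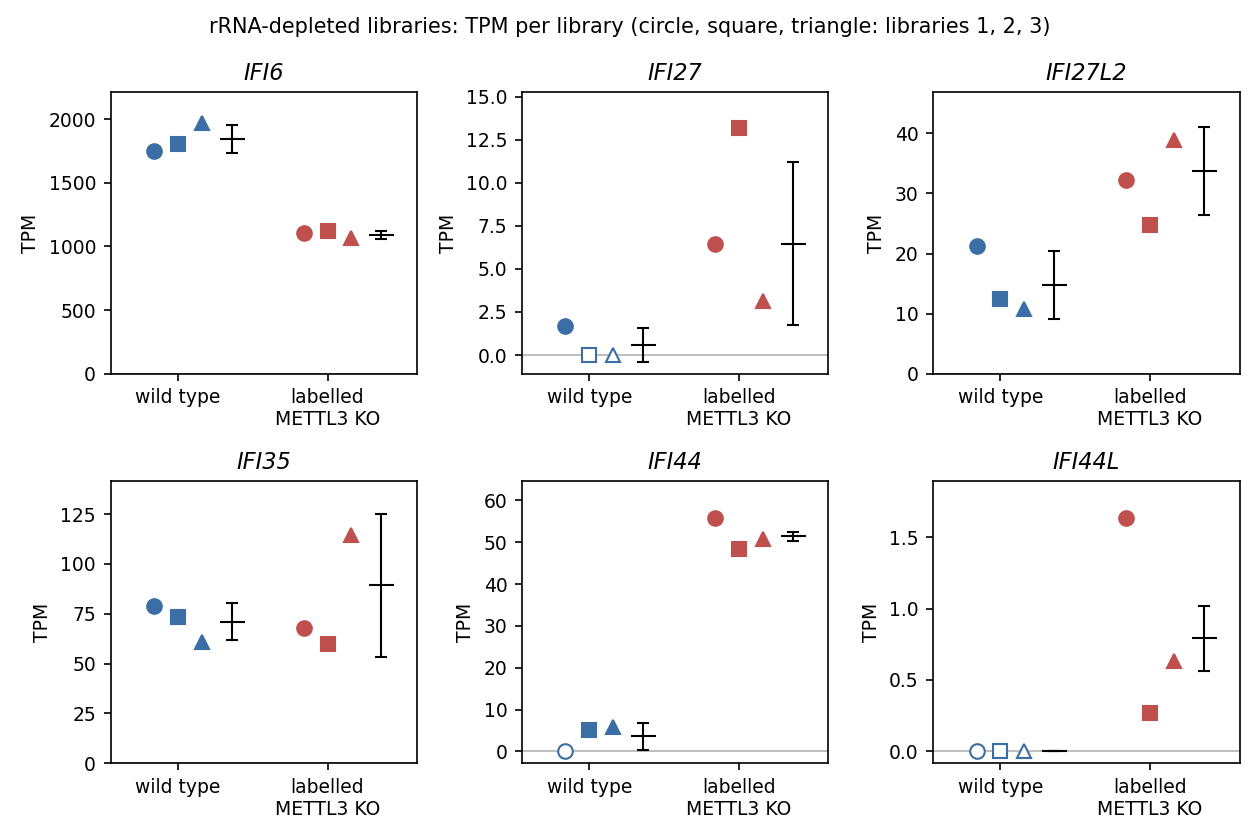
TPM of the 6 genes in each rRNA-depleted library, wild type in blue and KO label in red, with circle, square and triangle for libraries 1, 2 and 3 and open symbols for values listed at 0. Black bars are the mean ± SD of 3 WT and 2 KO samples, KO libraries 1 and 2 counted as 1. IFI6 is lower in every KO library, IFI44 higher in every one, and KO library 3 sets IFI35 apart at 115 TPM.

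On the TPM scale, which is per length, the order in WT was IFI6, IFI35, IFI27L2, IFI44, IFI27 and IFI44L. IFI6 exceeded IFI35, IFI35 exceeded IFI27L2 and IFI27L2 exceeded IFI44 in every WT library, while IFI44 and IFI27 overlapped, and so did IFI27 and IFI44L. For IFI27L2 and IFI44 the order rests on 2 against 1 reads in WT library 2 and 3 against 2 in WT library 3. It was thus not resolved in those libraries. In KO libraries IFI44, with 48.4 to 55.9 TPM, stood above IFI27L2, with 24.7 to 38.9 TPM, and still below IFI35. For IFI44 and IFI35 the order rests on 34 against 40 reads in KO library 1 and 36 against 43 in KO library 2. It was thus not resolved there, and KO library 3 had 16 against 35. IFI44 went from rank 9797 to rank 3017 of the 19686 protein-coding genes, IFI27 from 12311 to 9431, and IFI35 from 1750 to 1634. The WT ranks of IFI44 and IFI27 rest on totals of 3 reads and 1 read, so they are rough.

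Of the 5 genes tested, 3 had all KO libraries above all WT libraries (IFI27, IFI27L2 and IFI44) and 1 had all below (IFI6), where 38.4% and 19.9% of all tested genes did so. The genes most like each member were sought by Pearson correlation of log2(TPM + 1) over the 6 libraries, among 9749 other genes with a mean of at least 10 TPM. Since the libraries fall into 2 genotypes and 2 of them may be 1 sample, a high value mostly restates the split by genotype. CARD10 and SLC20A2 were nearest to IFI6 (0.999 each), C2CD3 and SDHB to IFI44 (0.999 each), LEO1 and ZFAT to IFI27 (0.991 each), and RMI1 (0.985) was near to IFI27L2. For IFI35 the nearest were TMEM104 (0.952) and VAT1 (0.944), and VAT1 is also the gene that faces IFI35 on chromosome 17, 148 bases beyond its end. VAT1 had 118 to 129 TPM in WT and 129, 124 and 153 TPM in KO libraries, so KO library 3 was the highest for both.

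The other nearest protein-coding genes moved in mixed ways. RPL27, a ribosomal protein gene 3765 bases before IFI35, was higher in KO rRNA-depleted libraries, with 61.3 to 161 TPM in WT and 842 to 956 TPM in KO, and changed by 3.23 on the log2 scale (SE 0.41; limma adjusted p 0.00466). The authors' deposited table had RPL27 lower, at -0.59 (SE 0.15; adjusted p 0.00146). PTGFR, a prostaglandin receptor gene 80172 bases before IFI44L, and PPP4R4, 15874 bases beyond IFI27L2, were each at 1.49 in the authors' deposited table, with adjusted p-values of 0.0393 and 0.00649. Both were listed at 0 TPM in all WT libraries and stood at 2.13 to 2.74 and 3.37 to 5.19 TPM in KO libraries, from 2 to 7 reads each. Limma called both higher, PTGFR at 1.8 (SE 0.35, limma adjusted p 0.0159) and PPP4R4 at 2.42 (SE 0.38, limma adjusted p 0.00851). The 3 reads that a count of 0 allows equal 3.81 to 6.59 TPM for PTGFR and 3.61 to 6.24 TPM for PPP4R4 in WT. These reach above the KO values, so the size of either change was not resolved at this depth. With pooled reads, the exact 95% interval of the ratio began at 0.977 for PTGFR and at 1.91 for PPP4R4, for counting error alone. ADGRL4, on the other side of IFI44 at 225685 bases, was at -3.24 (adjusted p 0.000859) in the authors' deposited table, at a mean of 3.15 counts, and at 0 TPM throughout. FGR and FAM76A flank IFI6. FGR had a mean of 0 counts and FAM76A was at -0.12 (adjusted p 0.874) in the authors' deposited table, and in rRNA-depleted libraries FGR was listed at 0 and FAM76A stood at 0.73 on the log2 scale (SE 0.61; limma adjusted p 0.396).

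The wider response gives the setting for the 6 genes. Of 71 other interferon-stimulated genes, the authors' deposited table tested 67 and called 60 higher and 0 lower, with a median log2 fold change of 1.34 against 0.02 over all genes. In the authors' deposited table BST2 (4.99), IFITM1 (4.59), OAS2 (4.11) and XAF1 (4.04) were above IFI27, while EPSTI1 (-0.19) and RNF213 (0.17) lay near IFI27L2. The 95% intervals of IFITM1 (3.84 to 5.35), OAS2 (3.64 to 4.58) and XAF1 (1.79 to 6.29) overlapped that of IFI27 (3.44 to 4.55). XAF1 had a mean of only 1.4 normalized counts, so its place was not resolved. In rRNA-depleted RNA limma tested 64 of the 71 and called 41 higher and 2 lower, with a median of 1.65 against 0.41 over all genes. Without KO library 3 limma called 15 higher and 1 lower. Of the 57 that were tested in both and higher in poly(A) RNA, 40 were called higher and 2 lower in rRNA-depleted RNA. IFI6 shared its pair of opposite signs with those 2, EIF2AK2 (PKR, a kinase activated by double-stranded RNA; 1.26 in the authors' deposited table and -1.05 in rRNA-depleted RNA) and PSMB8 (an immunoproteasome subunit; 0.58 and -0.87). EIF2AK2 had 170 to 191 TPM in WT and 83.5 to 95.8 TPM in KO libraries. TRIM22 (1.94 and -0.81), HELZ2 (1.28 and -0.03) and PARP10 (0.82 and -0.5) also had opposite signs. Limma did not call these genes in rRNA-depleted RNA, where HELZ2 lay within its SE of 0 (SE 0.11). PARP10 was not called in poly(A) RNA either (adjusted p 0.284 in the authors' deposited table).

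**Figure D4:**
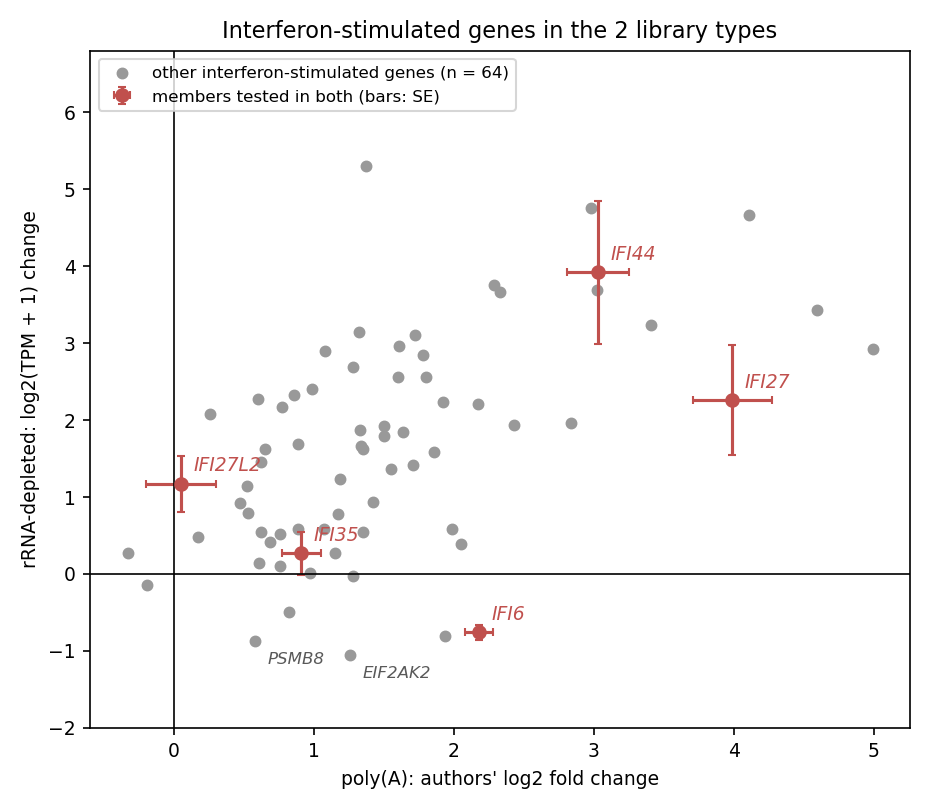
Log2 change in poly(A) RNA (x axis, authors' values) against log2(TPM + 1) change in rRNA-depleted RNA (y axis) for 64 other interferon-stimulated genes (grey) and the 5 members tested in both (red, bars are SE). IFI44 and IFI27 lie far from 0 on both axes. IFI6 lies at 2.18 and -0.76, in the quadrant that also holds EIF2AK2, PSMB8, TRIM22, HELZ2 and PARP10. Of these, limma called IFI6, EIF2AK2 and PSMB8 lower and did not call the others.

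Upstream of these genes, no interferon ligand was tested in either library type, and 20 of 21 ligand genes were listed at 0 TPM in all 6 libraries. The exception was IFNE, at 4.06 TPM in WT library 3 and 1.86 TPM in KO library 2. In the authors' deposited table IFNB1 had a mean of 0.288 normalized counts and IFNE 0.113, both too low to be tested. A count of 0 allows 3 reads, so low expression of a ligand is not excluded at this depth. Among receptor and signalling genes, the authors' deposited table called IFNGR2 (0.88), JAK1 (0.63) and STAT2 (0.62) higher and IFNLR1 (-2.09) lower. In rRNA-depleted RNA limma called JAK1 (1.64) and STAT2 (0.55) higher and the 2 chains of the type I receptor, IFNAR1 (-1.37) and IFNAR2 (-2.47), lower. The authors' deposited table called neither chain, with IFNAR1 at -0.05 (adjusted p 0.846) and IFNAR2 at -0.41 (adjusted p 0.285). IRF9 passed in neither, at 1.07 (adjusted p 0.106) in the authors' deposited table.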

How the data were processed

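RNA came from WT and METTL3 KO HMC3 cells. Per the submitters' processing notes, hg38, Trimmomatic, STAR and DESeq2 were used, with roles, annotation and counting tool not given in the sources used here. For poly(A) RNA the authors deposited 1 comparison table. It lists per gene the mean normalized count, a signal averaged by the authors over all poly(A) libraries. The authors also give the log2 fold change and its SE, the Wald score, and each p-value before and after adjustment. TPM was deposited by the authors for each rRNA-depleted library. Unused columns of single samples numbered 0.

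GENCODE 29 matched 56927 of 60669 gene identifiers (93.8%) and gave lengths, positions and GC content. Reads were recovered from TPM and length, a floor of 3 reads was used, and pooled ratios have exact (Clopper-Pearson) 95% intervals for counting error only. The test was limma 3.58.1 under R 4.3.3, with lmFit and a trended eBayes, on log2(TPM + 1), which understates changes of low genes, with Benjamini-Hochberg adjustment over all genes at 0.05. The step was tested on simulated reads with a common dispersion and no GC trend. That test does not cover the GC trend seen here, and its outcome is not reported here. Promoters came from RefSeq (GRCh38.p14). Other steps used Python 3.11.15, pandas 2.3.3, scipy 1.17.1 and matplotlib 3.10.9. The members and gene lists were chosen with earlier results of these data known. The named genes are the 6 members, METTL3, IFI27L1, NMI, the nearest protein-coding neighbours, the 2 genes most correlated with each member, genes at either end of the list of other interferon-stimulated genes, and called receptor and signalling genes. EIF2AK2, PSMB8, TRIM22, HELZ2 and PARP10 were named after their values were seen. Markers of astrocytes (at most 5.62 TPM in sum), neurons (12.8) and lymphocytes (1.96) were also read. A planned comparison of protein sequences was not done here, and some genes that the rule names are not reported here.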

Additional observations from a re-analysis of the deposited data

How the results depend on the processing

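The poly(A) results come from 1 deposited comparison. No paired analysis was possible because that table holds no single library. Its 2782 calls became 1811 at an adjusted p under 0.01 and 647 with a change of 1 log2 unit or more either way. In rRNA-depleted RNA the 5220 calls (64.8% higher) became 3338 with reads thinned to the shallowest library (57.8% higher), and ran from 1663 to 5185 when 1 library was left out, the lowest without KO library 3, which leaves a single KO sample assumed to vary like the WT samples. The share of higher calls was 48.6% with median ratio scaling, 52.1% with quantile normalization, 52.5% under voom and 42.9% with the GC trend removed. The count of members higher, 1, was 0 with a pseudocount of 0.1, with reads thinned and with the GC trend removed, 2 under voom, 3 with the 6 libraries separate, and 0 to 3 when 1 library was left out. It was 3 without WT library 1, where IFI27 (limma adjusted p 0.0455) and IFI27L2 (limma adjusted p 0.0319) passed, 2 without KO library 2 and 0 without KO library 3. The count of members lower, 1, was 0 to 1 when 1 library was left out. With the replicate number as a block over the 6 libraries the count of members higher was 3, IFI27 (limma adjusted p 0.0359) and IFI27L2 (limma adjusted p 0.0461) having passed, and that of all genes 6037. Libraries that share a number did not deviate together (correlations of 0.0203, -0.0205 and 0.00821 across genes). At this depth counting error can hide a shared deviation, so the check does not exclude pairing. IFI35 had -0.08 with median ratio scaling, -0.23 under voom, and -0.14 (without KO library 3) to 0.35 (without WT library 1) when 1 library was left out, and METTL3 had -0.37 with the GC trend removed. IFI27 was not tested with a filter of 5 TPM. IFI44L was tested only without a filter, with a log2 change of 0.84 (limma adjusted p 0.171). Of the promoters, 2 members held the repeat with a spacer of 1 base against 4 with the core. The causes were not tested. Depth limits IFI27, IFI44 and IFI44L most, which rest on at most 2 reads in a WT library.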
